A study of Mus musculus with 8 samples.

Results

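The genes described here encode the parts of Kv4 potassium channel complexes: the pore genes Kcnd1, Kcnd2 and Kcnd3, the KChIP genes Kcnip1, Kcnip2, Kcnip3 and Kcnip4, and the DPP genes Dpp6 and Dpp10. They were chosen by name, and all 9 had an entry among the 14353 genes of the deposited table. Kv4 channels carry a fast, inactivating potassium current of the A type, which opens below the threshold for firing and delays or spaces action potentials. Each channel is a tetramer of pore subunits. KChIPs, which are calcium-binding proteins of the neuronal calcium sensor family, bind it on the cytoplasmic side and raise its surface level, and DPP proteins, membrane relatives of dipeptidyl peptidases that have lost enzyme activity, speed its gating.

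The tissue was the ventral pallidum (VP) of adult mice from a cross of vGluT2-Cre with RiboTag, and 2 RNA fractions of it were sequenced. In RiboTag mice, cells that express Cre carry a hemagglutinin tag on the ribosomal protein Rpl22. TRAP was the ribosome-bound RNA pulled down through that tag, and INPUT was the RNA of the VP lysate with all its neurons and glia. Tissue went into 4 pools (VP1.6, then VP2.2, then VP2.6, then VP2.11), each with 1 library per fraction, 8 libraries in all. Every mouse, in both fractions, was untreated, carried VGluT2-Cre in the homozygous and Rpl22 in the heterozygous state, and was 9 to 12 weeks old in VP1.6 or 10 to 16 weeks old in the other pools. The pools held 7, 10, 11 and 10 mice in the order above, 38 mice of both sexes (15 male and 23 female), so no value belongs to 1 animal. Cre followed the vGluT2 gene Slc17a6, and the tag therefore marked vGluT2 cells of any subtype in the VP punches taken from the dissected slab. The study's methods name the unbound fraction where they describe the sequencing, while the labels name the Input. INPUT is read here as the labels give it.

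The unit of all levels is log2 CPM as deposited, given below as CPM (reads of a gene scaled to a common library size). Depth could be recovered in VP2.2 (about 12.7 M reads in TRAP and 38.4 M in INPUT) and in VP2.6 (12.5 M and 24.8 M), but not in VP1.6 and VP2.11, where values were rounded. Slc17a6 rose in TRAP by 2.55 on the log2 scale (adjusted p = 8.8e-05 by limma, 7.3e-06 with the pool as a block), at 143 ± 13.6 CPM against 25.9 ± 10.3 (SD, n = 4 pools). Slc17a7, another glutamatergic neuron marker, rose by 1.45 (adjusted p = 0.00029 by limma, 0.00062 with the block), at 53.9 CPM against 20.2. Slc17a8, the third such marker, was at -0.03 and passed neither fit. Slc32a1, the vesicular GABA transporter, fell by 1.26 (adjusted p = 0.0027 and 0.0055). The summed level of the 3 GABA markers (Slc32a1, Gad1 and Gad2, of which Gad1 and Gad2 passed neither fit) was 918 to 1570 CPM in TRAP and 584 to 1390 in INPUT, so RNA of GABA markers was still abundant in TRAP. Of the glial markers, 4 of 5 for astrocytes and 4 of 5 for oligodendrocytes fell in both fits, with medians of -1.12 and -1.6 on the log2 scale. Among oligodendrocyte markers Mag alone was higher, at 0.61, without the block only (adjusted p = 0.035 and 0.072). In bulk RNA, fewer cells of a type and less RNA per cell cannot be told apart.

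The deposited values of a pool's libraries are tied to each other. In all but 1 of 14353 genes, the intervals from INPUT to TRAP of the 4 pools shared a point (within 0.01 log2), against 48.3% to 56.6% of genes when INPUT was taken from another pool. Whole reads recovered for Kcnd3 in VP2.2, 529 in TRAP and 497 in INPUT, correspond to 41.7 and 12.9 CPM, whereas the deposited levels are 32.2 and 10.0 CPM, below the level from reads by about the same ratio in both libraries. Fractions that do not overlap are the same genes as those that differ in 1 direction in all 4 pools, and the fit with the fraction alone saw deviations of a pool's libraries that oppose each other (correlation -0.745 to -0.495 across genes in the 4 pools). Both fits are therefore given throughout, "rose" and "fell" are used only of genes that passed both, and the sign-flip test over 4 pools cannot give a p below 0.125.

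Of the 9 genes, Kcnd3 and Dpp6 rose in TRAP and Kcnip2 fell in both fits (adjusted p under 0.05, Benjamini-Hochberg over 14249 genes). Kcnd1, Kcnip4 and Dpp10 were higher in TRAP in all 4 pools and passed only the fit with the fraction alone. Kcnd2, Kcnip1 and Kcnip3 passed neither fit. Without the block, 5 genes were higher and 1 was lower, beside 23.2% and 24.8% of all genes tested (47.9% in either direction). With the block, 2 were higher and 1 was lower, beside 15.4% and 16.8% of all genes (32.2% in either direction). TRAP and INPUT did not overlap in 6 of the 9 genes, 5 higher and 1 lower in TRAP, and in 47.7% of all genes, 23.3% higher and 24.4% lower. The members' median difference was 0.50 on the log2 scale, and that of all genes -0.05. No member was under 3.01 CPM in any library, and all 9 passed the filter on low values.

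**Figure D1:**
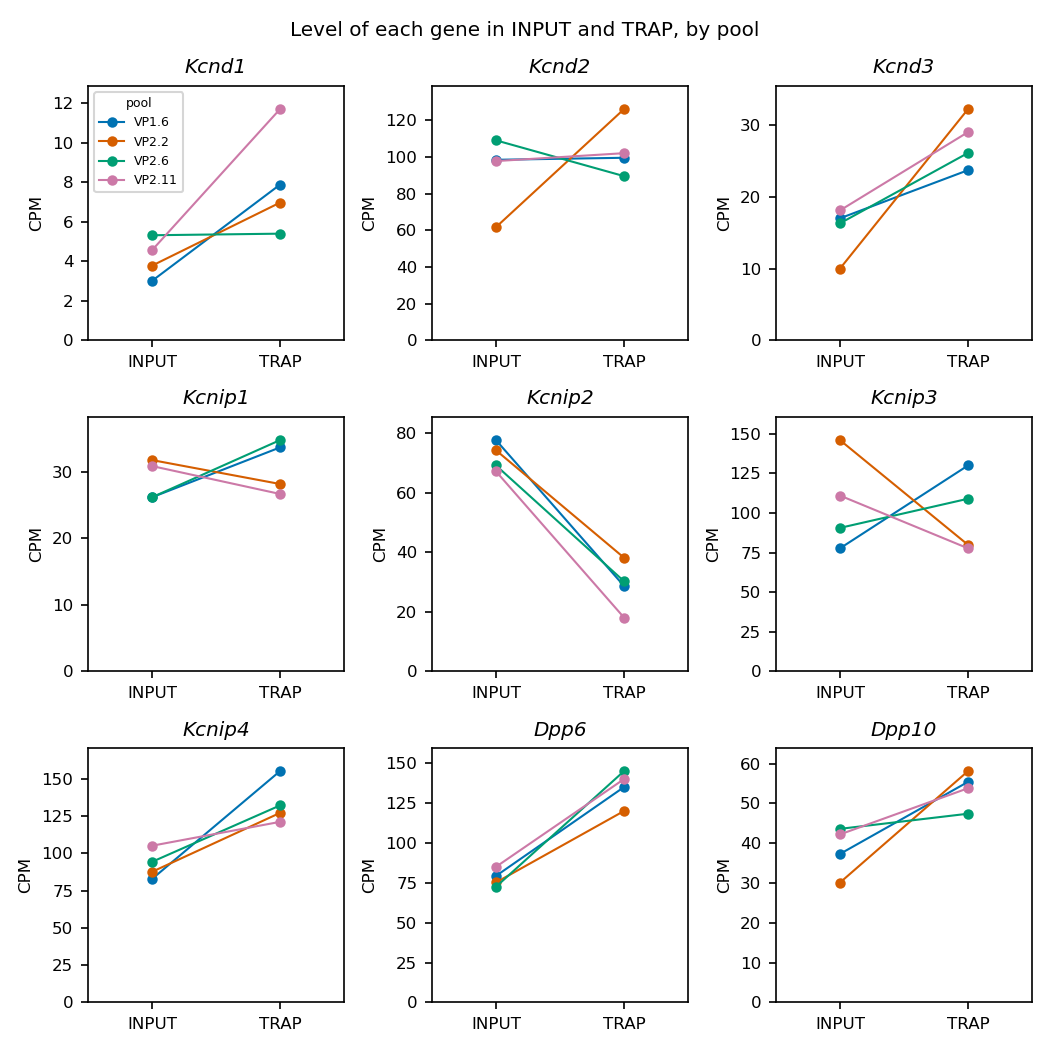
Level of each gene in CPM (vertical axes, linear, starting at 0) in INPUT and TRAP; each line joins the 2 libraries of 1 of the 4 pools. All 4 lines fall for Kcnip2, all 4 rise for Kcnd1, Kcnd3, Kcnip4, Dpp6 and Dpp10, and the lines cross for Kcnd2, Kcnip1 and Kcnip3.

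Kcnd2, the pore subunit gene best known from hippocampal and striatal neurons, lies at chr6:21215503-21729805 (GRCm38, plus strand; ENSMUSG00000060882). Its TRAP levels were 99.5, 126, 89.5 and 102 CPM in the 4 pools, taken in the order given above, and its INPUT levels in the same order were 98.4, 61.7, 109 and 97.7 CPM. The fractions overlapped: only VP2.2 had a clear difference, with the highest TRAP and the lowest INPUT level of the gene, and VP2.6 had the lower level in TRAP. The mean difference was 0.21 on the log2 scale (95% interval -0.21 to 0.62, adjusted p = 0.39 by limma, and -0.31 to 0.72 and 0.54 with the block), and without VP2.2 it was -0.07.

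Kcnd3, which encodes a pore subunit also found in heart, lies at chr3:105452330-105674002 (plus strand; ENSMUSG00000040896). It stood at 23.7, 32.2, 26.1 and 29.0 CPM in TRAP and at 17.0, 10.0, 16.3 and 18.1 CPM in INPUT, pools in the same order. Every TRAP library was above every INPUT library, and the gap was widest in VP2.2, where INPUT was low. Kcnd3 rose by 0.88 ± 0.20 (log2, SE), a 1.84-fold ratio of TRAP to INPUT (95% interval 0.43 to 1.33, adjusted p = 0.0054 by limma). With the block the SE was 0.27 and the adjusted p was 0.021. The call is lost with the block when VP2.2 is left out (0.61, adjusted p = 0.068) or VP2.6 (0.95, 0.052), and when the trend of the difference with exon length is taken out (0.52, adjusted p = 0.064, and 0.10 with the block).

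Kcnd1, the least studied of the pore genes, lies at chrX:7822289-7838280 (plus strand; ENSMUSG00000009731). It was the lowest member in each library, at 7.88, 6.97, 5.40 and 11.7 CPM in TRAP and 3.01, 3.78, 5.32 and 4.56 CPM in INPUT. VP2.6 showed nearly equal levels, resting on 58 TRAP and 114 INPUT reads, and the other 3 pools had TRAP above INPUT by 0.88 to 1.39 on the log2 scale. The mean difference was 0.91 ± 0.28 (log2, SE, adjusted p = 0.02 by limma), 1.88-fold, with an SE of 0.36 and an adjusted p of 0.067 with the block. Without the block the call is also lost when VP1.6 (0.75, adjusted p = 0.11) or VP2.2 (0.92, 0.067) is left out. With libraries weighted by their quality (limma array weights) the difference was 0.56 and not called (adjusted p = 0.064), and with the block as well it was 0.75 (adjusted p = 0.08).

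The KChIP genes share their calcium-binding core, and counts could be assigned to each only through the bases that differ. Below, 90 coding bases within the calcium-binding EF-hand region are shown for each gene (GENCODE M21, GRCm38). Among stretches of this length in the last 540 coding bases, searched codon by codon, the other KChIP genes are here most like Kcnip2. The gene that fell is thereby set beside its relatives. Capitals mark the 32 bases that are not the same in all 4 genes.
Kcnip2: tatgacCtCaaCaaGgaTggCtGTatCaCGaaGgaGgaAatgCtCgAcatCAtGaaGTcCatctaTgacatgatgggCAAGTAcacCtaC
Kcnip1: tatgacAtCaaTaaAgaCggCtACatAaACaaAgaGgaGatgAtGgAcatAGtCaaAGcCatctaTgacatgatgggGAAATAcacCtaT
Kcnip3: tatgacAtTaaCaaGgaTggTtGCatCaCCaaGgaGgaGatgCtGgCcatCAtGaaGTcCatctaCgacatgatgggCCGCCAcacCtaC
Kcnip4: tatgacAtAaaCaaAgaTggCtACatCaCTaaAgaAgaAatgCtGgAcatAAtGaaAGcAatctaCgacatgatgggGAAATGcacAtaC
Coding bases are counted from the A of the start codon in the transcript with the longest coding sequence. The window begins at coding base 562 in Kcnip2, 433 in Kcnip1, 604 in Kcnip3 and 502 in Kcnip4. In all 4 genes it is split between neighbouring exons after 36 bases, with 54 bases in the next exon. On the minus strand these pieces lie at chr19:45794480-45794515 and chr19:45794250-45794303 for Kcnip2 (exons 7 and 8), at chr11:33642431-33642466 and chr11:33634630-33634683 for Kcnip1 (exons 6 and 7), at chr2:127460433-127460468 and chr2:127460034-127460087 for Kcnip3 (exons 6 and 7), and at chr5:48398479-48398514 and chr5:48396702-48396755 for Kcnip4 (exons 6 and 7). No run alike in all 4 was longer than 11 bases here. Over the last 540 coding bases, pairs of KChIP genes were 71.7% to 75.7% identical, and the longest run shared by any pair of their annotated transcripts was 30 bases, shorter than the 75-base read. No possible 75-base read from an annotated transcript of Kcnip1, Kcnip2 or Kcnip3 matched another gene. For Kcnip4 the share was 1.63%, through overlap with 5730480H06Rik and Gm20700 on the opposite strand, and the strand setting of the counting was not given in the sources used here.

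Kcnip2, whose protein sets the surface level and recovery of Kv4 channels in heart and brain, lies at chr19:45791839-45816061 (minus strand; ENSMUSG00000025221). It stood at 28.7, 38.2, 30.3 and 18.1 CPM in TRAP and at 77.7, 74.3, 69.2 and 67.2 CPM in INPUT. INPUT levels were close together, every TRAP library was below every INPUT library, and VP2.11 had the lowest TRAP level. Kcnip2 fell by 1.37 on the log2 scale (SE 0.20, 95% interval -1.82 to -0.92, adjusted p = 0.00054 by limma, and SE 0.23 and adjusted p = 0.00064 with the block), so INPUT was 2.58-fold higher. It was the only member to pass in every setting run, and its differences within pools ran from -1.89 to -0.96. The 4 markers of striatal projection neurons also fell in both fits, with a median of -1.37 on the log2 scale: Adora2a fell by 2.07, Drd2 by 1.4, Ppp1r1b by 1.34 and Drd1 by 1.31, and their summed level was 145 to 203 CPM in TRAP against 350 to 510 in INPUT. Glial markers fell as given above, and the part of either cell type in the Kcnip2 result was not tested.

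Kcnip4, of which an isoform slows the inactivation of Kv4 channels, lies at chr5:48389502-49524907 (minus strand; ENSMUSG00000029088). Its levels were 155, 127, 132 and 121 CPM in TRAP and 82.7, 87.5, 94.2 and 105 CPM in INPUT. All TRAP libraries lay above all INPUT libraries, with the widest gap in VP1.6 and the narrowest in VP2.11. The difference was 0.53 ± 0.13 (log2, SE, adjusted p = 0.0074 by limma), 1.45-fold, and the adjusted p was 0.069 with the block (SE 0.21). Without VP1.6 it was 0.41 and not called in either fit (adjusted p = 0.071 and 0.32). Kcnip4 passed with the block when array weights were used (0.59, adjusted p = 0.014) and when the exon length trend was taken out (0.61, 0.024).

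Kcnip3, which encodes a KChIP also known as the transcriptional repressor DREAM and as calsenilin, lies at chr2:127456498-127522094 (minus strand; ENSMUSG00000079056). It stood at 130, 79.9, 109 and 77.7 CPM in TRAP and at 77.7, 146, 90.6 and 111 CPM in INPUT. The fractions overlapped fully, with TRAP higher in VP1.6 and VP2.6 and lower in VP2.2 and VP2.11. Its difference was -0.09 on the log2 scale (95% interval -0.59 to 0.41, adjusted p = 0.75 by limma, and -0.65 to 0.47 and 0.82 with the block).

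Kcnip1, a KChIP gene known from interneurons, lies at chr11:33629339-33993152 (minus strand; ENSMUSG00000053519). Its levels were 33.7, 28.2, 34.8 and 26.7 CPM in TRAP and 26.2, 31.8, 26.2 and 30.9 CPM in INPUT. The same pools as for Kcnip3 had TRAP above INPUT, VP1.6 and VP2.6, and the other 2 had it below. The difference was 0.10 (log2, 95% interval -0.23 to 0.42, adjusted p = 0.60 by limma, and -0.41 to 0.60 and 0.78 with the block).

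Dpp6, which encodes the DPP subunit common in the somatodendritic A-type channels of many neurons, lies at chr5:26817203-27727505 (plus strand; ENSMUSG00000061576). It stood at 135, 120, 145 and 140 CPM in TRAP and at 79.3, 75.2, 72.5 and 85.0 CPM in INPUT. The fractions were far apart in every pool, and the differences within pools, 0.67 to 1.00 on the log2 scale, had no pool near 0. Dpp6 rose by 0.79 ± 0.12 (log2, SE), 1.73-fold (95% interval 0.53 to 1.05, adjusted p = 0.00056 by limma, and SE 0.21 and adjusted p = 0.0095 with the block). The call is lost with the block when VP2.6 is left out (0.72, adjusted p = 0.079) and in both fits when the exon length trend is taken out (0.33, adjusted p = 0.22 and 0.24).

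Dpp10, which encodes the other DPP subunit, lies at chr1:123321471-124045559 (minus strand; ENSMUSG00000036815). Its levels were 55.4, 58.1, 47.4 and 53.8 CPM in TRAP and 37.3, 30.1, 43.6 and 42.2 CPM in INPUT. TRAP was higher in all 4 pools, by a little in VP2.6 and most in VP2.2. The difference was 0.50 ± 0.15 (log2, SE, adjusted p = 0.019 by limma, 0.11 with the block), and it turned to -0.06 when the exon length trend was taken out. The call without the block is also lost when VP1.6 is left out (0.47, adjusted p = 0.098), and the difference was 0.33 with array weights (adjusted p = 0.026).

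**Figure D2:**
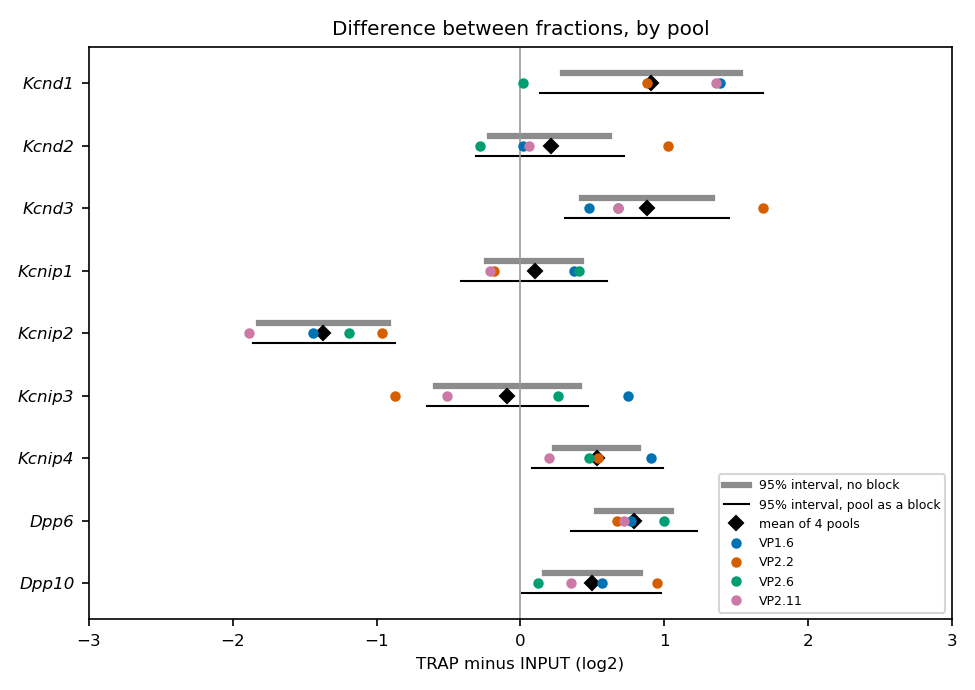
TRAP minus INPUT in log2 units (horizontal axis) for each gene: colored points are the 4 pools, the diamond is their mean, the grey bar the 95% interval without the block and the black line that with pools as a block. The black line of Kcnip2 lies wholly below 0, from -1.86 to -0.87, and those of Kcnd2, Kcnip1 and Kcnip3 cross 0.

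Genes with more exon bases tended to be higher in TRAP, with a Spearman rho of 0.412 between the log2 difference and exon length across the genes tested (a description across genes, which share libraries). Dpp10, Dpp6 and Kcnd3 had more exon bases than 97.8%, 94.7% and 89.0% of tested genes, and their differences shrank from 0.50, 0.79 and 0.88 to -0.06, 0.33 and 0.52 when the trend was taken out within each pool. Kcnip2, Kcnip3 and Kcnip4 had more than 39.1%, 40.2% and 41.4%. With the trend out, 3 members were called without the block and 2 with it, beside 39.4% and 32.0% of all genes. Most of the loci are very long, against a median span of 22.6 kb. Kcnip4 spans 1140 kb, Dpp6 910 kb, Dpp10 724 kb and Kcnd2 514 kb, each above 98.6% or more of tested genes. Kcnip1 spans 364 kb, Kcnd3 222 kb, Kcnip3 65.6 kb, Kcnip2 24.2 kb and Kcnd1 16.0 kb. Whether the difference goes with span was not tested: Kcnd1, the shortest locus, was at 0.91, and the long loci Kcnd2 and Kcnip1 were at 0.21 and 0.10.

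To compare genes with one another, levels were divided by the length of annotated exons (CPM per kb). In TRAP, Kcnip4 stood highest at 36.9 ± 4.13 CPM per kb (SD, n = 4), followed by Kcnip3 at 28.0 ± 7.09 and Kcnd2 at 20.2 ± 2.99. Dpp6 (10.9 ± 0.883), Kcnip2 (8.30 ± 2.38) and Kcnip1 (4.98 ± 0.645) lay in the middle, and Dpp10 (3.40 ± 0.287), Kcnd3 (2.90 ± 0.384) and Kcnd1 (1.51 ± 0.508) were the lowest. The ranges over the 4 pools overlapped between Kcnip4 and Kcnip3, Kcnip3 and Kcnd2, Dpp6 and Kcnip2, Kcnip2 and Kcnip1, and Dpp10 and Kcnd3. Kcnd2 was separate from Dpp6, Kcnip1 from Dpp10, and Kcnd3 from Kcnd1. In INPUT the order was Kcnip3 (30.0 CPM per kb), Kcnip4 (25.5), Kcnip2 (20.7), Kcnd2 (17.8), Dpp6 (6.32), Kcnip1 (4.64), Dpp10 (2.43), Kcnd3 (1.6) and Kcnd1 (0.788). Kcnip2 thus ranked 3 in INPUT and 5 in TRAP. With the length of the longest coding transcript in place of all exons, an option added after the data were seen, Dpp6 ranked 3 in TRAP at 28.6 CPM per kb and Kcnip1 reached 13.3, while Kcnip4 at 55.9 and Kcnip3 at 36.3 ranked 1 and 2 in TRAP again.

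Summed over the pore genes, TRAP held 24.6 ± 3.38 and INPUT 20.1 ± 4.43 CPM per kb. Kcnd2 made up 79.0% to 83.9% of this sum in TRAP and 87.2% to 89.1% in INPUT, and Kcnd3 10.6% to 12.9% in TRAP and 7.15% to 8.71% in INPUT. The share of Kcnd2 was lower and that of Kcnd3 higher in TRAP in every pool, though Kcnd2 was the leading pore gene in all 8 libraries.

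The KChIP sum had nearly the same mean in the fractions, 78.1 ± 12.1 CPM per kb in TRAP and 80.8 ± 9.16 in INPUT. By pool, in the same order, it was 93.3, 73.2, 81.2 and 64.8 in TRAP and 71.3, 91.8, 75.7 and 84.6 in INPUT. TRAP was thus higher in VP1.6 and VP2.6 and lower in VP2.2 and VP2.11. The makeup of the sum differed between the fractions. Kcnip2 held 8.04% to 15.0% of it in TRAP and 22.8% to 31.4% in INPUT, and Kcnip4 44.6% to 51.5% in TRAP and 26.3% to 34.4% in INPUT. Kcnip3 (means 35.4% and 36.6%) and Kcnip1 (6.40% and 5.75%) had ranges that overlapped between the fractions.

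The DPP sum was 14.4 ± 0.665 CPM per kb in TRAP and 8.75 ± 0.641 in INPUT, with no overlap, and Dpp6 held most of it in both (means 76.2% and 72.3%). For each unit of pore level, KChIP level was 3.24 ± 0.80 in TRAP and 4.27 ± 1.63 in INPUT, and DPP level was 0.592 ± 0.0995 and 0.449 ± 0.0943. Both pairs of ranges overlapped. The sums, shares and ratios of the classes depend on the length used, here all annotated exons. With the longest coding transcript, Dpp6 in TRAP was at 28.6 instead of 10.9 CPM per kb and Kcnip1 at 13.3 instead of 4.98, while Kcnd2 stayed at 20.2. The class values were not computed with that length.

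**Figure D3:**
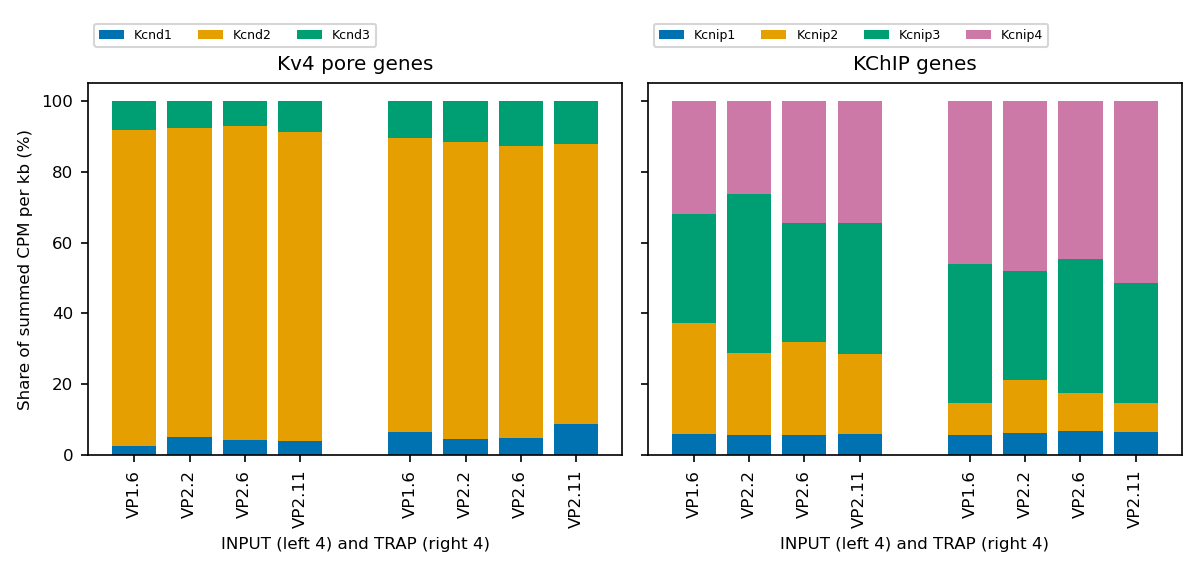
Share of each gene in the summed CPM per kb of its class (percent, vertical axis) for the 3 pore genes (left) and the 4 KChIP genes (right); each bar is 1 library, with 4 INPUT libraries on the left and 4 TRAP libraries on the right of each panel. Kcnd2 fills most of every pore bar, and the Kcnip2 segment is narrower in each TRAP bar, at most 15.0%, than in any INPUT bar, at least 22.8%.

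The pore genes' mean difference between TRAP and INPUT was 0.63, 1.20, 0.14 and 0.70 on the log2 scale in the 4 pools, in the same order. That of the 6 auxiliary genes was 0.32, 0.03, 0.18 and -0.22. Pore minus auxiliary was thus 0.31, 1.17, -0.04 and 0.92, with a mean of 0.59 ± 0.56 (SD, n = 4 pools), above 0 in 3 of 4 pools. Among the auxiliary genes, the DPP genes had a mean of 0.64 ± 0.12 and the KChIP genes -0.21 ± 0.34. The KChIP mean includes Kcnip2 at -1.37, beside 0.10 for Kcnip1, -0.09 for Kcnip3 and 0.53 for Kcnip4. With the exon length trend taken out, Dpp6 was 0.33 and Dpp10 -0.06. Without Kcnip2 the pore minus auxiliary value was 0.30 ± 0.59 and above 0 in 2 of 4 pools.

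Within the classes, 10 pairs of genes were compared by their differences within pools. The widest was Kcnip2 minus Kcnip4, -1.90 ± 0.39 on the log2 scale (SD, n = 4; -2.35 to -1.50), followed by Kcnip1 minus Kcnip2 at 1.47 ± 0.46 and Kcnip2 minus Kcnip3 at -1.28 ± 0.87. Kcnd2 minus Kcnd3 was -0.68 ± 0.21, Kcnip3 minus Kcnip4 -0.63 ± 0.58 and Kcnip1 minus Kcnip4 -0.44 ± 0.27. Each of these 6 had 1 direction in all 4 pools and the smallest exact two-sided sign-flip p the design allows, 0.125 (0.208 adjusted over the 10 pairs), so none could pass. The other 4 pairs differed in direction among pools, Kcnd1 minus Kcnd2 by 0.71 ± 0.75, Dpp6 minus Dpp10 by 0.29 ± 0.48, Kcnip1 minus Kcnip3 by 0.19 ± 0.45 and Kcnd1 minus Kcnd3 by 0.03 ± 0.89.

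Other genes of the A-type current and of the protein families were read from the same fits. Of the further A-type pore and beta subunit genes described here, Kcnab1, a Kv1 beta subunit gene, was lower by -0.61 on the log2 scale without the block only (adjusted p = 0.017 by limma, 0.062 with the block), and Kcna4 and Kcnc4 passed neither fit. Of 11 genes in the table for proteins known to bind or modify Kv4 channels, 3 rose and 1 fell in both fits, beside 15.4% higher and 16.8% lower of all genes with the block, and the median was 0.10 against -0.05 for all genes. Those that rose were Cacna1g by 1.39 and Cacna1i by 1.05, T-type calcium channel genes whose channels can sit beside Kv4 and KChIP, and Camk2a by 1.00, a kinase that phosphorylates the channel, while the scaffold gene Dlg4 fell by 1.06. The genes Kcne1 to Kcne5 of that list had no entry and were not analysed here. Cacna1g was low, at 5.10 ± 1.41 CPM in TRAP and 1.93 ± 0.428 in INPUT.

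The relatives of KChIPs moved in both directions. Of 6 other neuronal calcium sensor genes in the table, Hpca fell by 1.57 and Ncs1 by 1.42 in both fits, and Ncald rose by 1.19 and Vsnl1 by 0.99. The 6 had a median of 0.27, and their calls stand beside the same shares of all genes. Of the peptidase relatives of DPP6 and DPP10 in the table, Dpp9 rose by 0.96 (adjusted p = 0.00088 by limma, 0.0044 with the block), and Dpp8 passed neither fit.

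**Figure D4:**
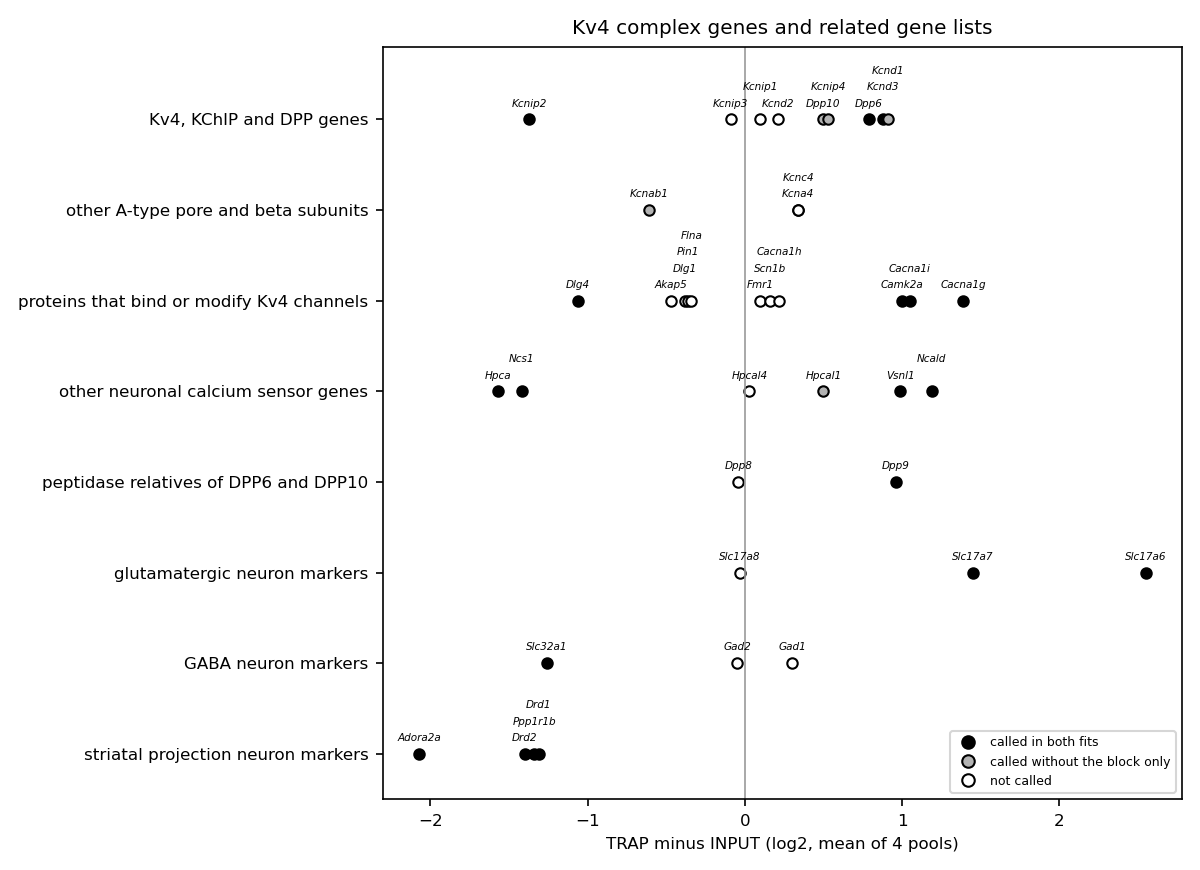
Mean TRAP minus INPUT difference (log2, horizontal axis) of each Kv4, KChIP and DPP gene and of the related gene lists and neuron markers; filled points passed both limma fits, grey points only that without the block, open points neither. Kcnip2 at -1.37 lies apart from the other 8 members and within the range of the striatal projection neuron markers, -2.07 to -1.31.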

How the data were processed

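The authors aligned single reads of 75 bases with STAR (2.5.1a in the submitters' processing notes), counted them per gene, computed TMM factors with edgeR and fitted limma. Deposited values of each library are log2 CPM. Further columns the authors deposited hold log2 fold changes with limits, a mean level, p-values, scores (t, B and a signed linear fold change), and a number of annotated transcripts per gene; none of these was used. Of 14398 entries, 45 repeated a gene and were dropped. The values of INPUT VP1.6 and of both VP2.11 libraries are rounded to 3 significant digits.

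The test took 14249 genes, those above 1 CPM in 3 libraries or more, with limma 3.58.1 (lmFit, eBayes with trend) in R 4.3.3, two-sided, Benjamini-Hochberg over all of them, threshold 0.05. The fraction alone was the model, and the pool as a block the alternative. Pools pair the libraries, since the labels give each pool both fractions. The p-values rest on the spread of the deposited values between pools of mice. That spread carries the tie between the libraries of a pool, so it need not equal the spread of unadjusted pools. Both fits were run on simulated data, as was the recovery of reads. The changes planted for the fits were larger than any member's difference, and the point shared by all pools was not built in. Those runs therefore do not show how the fits perform at the members' size of change.

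Whole reads were sought in TRAP minus INPUT differences within a pool (tolerance 3e-09 log2, up to 1000 INPUT reads); they were found for 67.5% of genes in VP2.2 and 75.3% in VP2.6, against 0.105% and 0.111% with INPUT of another pool. The scale was set where small primes divide TRAP and INPUT equally often. No count test was run, because reads were found only as ratios within pools, and counting intervals are not given. How the values of a pool came to be tied was not given in the sources used here.

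Positions, lengths (all exons merged) and coding sequences came from GENCODE M21 (GRCm38), matched by gene identifier. Levels are back-transformed per library; means and SDs are over pools and carry the tie between libraries of a pool. The exon length trend was a lowess curve (span 0.5) within each pool. The members and lists were chosen with earlier results of these data known. All 9 members are named, and for each pore gene the 3 genes with the highest Pearson's r. Of each list, the genes called without the block are named, at most 4 by size of change. The lists of astrocytes, oligodendrocytes and microglia are the exception: their genes are given as counts, with Mag alone named. Gad1, Gad2, Slc17a8, Dpp8, Mag, Kcna4, Kcnc4, Pdgfra and Pecam1 were named after their values were seen. A gene of the lists is not reported here.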

Additional observations from a re-analysis of the deposited data

How the results depend on the processing

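The number of genes called was 6830 with the fraction alone and 4592 with the replicate block, 3528 with a log2 change of at least 1, and 3232 to 6894 when 1 pool was left out, with or without the block. Members called were 6, and 3 with the replicate block, 3 with the exon length trend out and 2 with it out and the block, 1 with a log2 change of at least 1, and 1 to 6 with 1 pool left out; the fewest, with the block, came without VP2.6, when only Kcnip2 passed. Leaving out VP1.6 brought the count without the block to 3, with Kcnd1, Kcnip4 and Dpp10 lost. Array weights called 6 members among 8645 genes, with Kcnip1 in and Kcnd1 out, and 4 among 6013 with the block, Kcnip4 among them. Quantile normalization, log2(CPM + 1), no filter and a stricter filter each left 6 called. Directions that turned were those of genes not called, and of Dpp10. Kcnd2 was -0.06 with array weights, -0.01 with weights and the block, and -0.07 to 0.37 with 1 pool left out. Kcnip1 was -0.08 with the length trend out, in both fits, and -0.01 to 0.20 with 1 pool left out. Kcnip3 was 0.25 and 0.21 with array weights, without and with the block, and -0.37 to 0.17 with 1 pool left out. Dpp10 was -0.06 with the length trend out, in both fits. Kcnip1 passed with array weights (0.28, adjusted p = 0.049). Pore minus auxiliary was 0.40 to 0.80 in the 7 alternatives, against 0.59 with all pools and no change of processing. Leaving out 1 of 4 pools cannot move this mean by more than the SD over pools, so those runs are no test of it. Depth is known in 2 pools only, the low level of Kcnd1 limits its precision, and 4 pools cannot give a sign-flip p below 0.125. The causes of these changes were not tested.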

Other observations

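For each pore gene, 14248 genes were ranked by Pearson's r of log2 CPM over the 8 libraries. The libraries are 4 pools of 2 fractions, and how far the fraction and the tie within pools set r was not tested. The genes that followed each pore gene most closely are given as a description only. For Kcnd1 they were Gpr107 (r = 0.997), Tti2 (0.995) and Capn6 (0.994). For Kcnd2 they were Fam171b (0.996), Usp34 (0.993) and Akap6 (0.993), and for Kcnd3 Fam214a (0.999), Plekhm3 (0.998) and Aldh5a1 (0.998).

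Coding sequences of the pore genes were less alike over short stretches than the read length. The longest run that Kcnd1 and Kcnd3 shared was 29 bases, accatggccatcatcatctttgccactgt, at coding base 1000 of Kcnd1, shown because it is the longest run that any pair of pore genes had in common. Dpp6 and Dpp10 shared at most 20 bases. Of possible 75-base reads, 0.949% of those of Kcnd3 matched the antisense gene Kcnd3os, 0.154% of those of Dpp6 and 1.77% of those of Dpp10 matched other genes, and none of those of Kcnd1 or Kcnd2 did.

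Of other marker lists, the 5 microglia genes were lower, 3 of them with the block as well. Cspg4, an oligodendrocyte precursor and pericyte gene, rose by 1.98, Gpr17 fell by 1.01, and Flt1, an endothelial gene, rose by 2.37. Chat was higher by 0.70 (adjusted p = 0.034 by limma, 0.066 with the block) and Slc18a3, which lies within the Chat gene, fell by 1.75. The part of these cell types in the results above was not tested.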
